A study of Mus musculus with 12 samples.

Results

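Cluster 10 was a group of 425 cells in the kidney library of NZB/W F1 mice at 28 weeks (28W), whose members were the cell barcodes that the deposited cluster table of this library assigns the number 10. It held 425 of the 7135 kidney cells, or 5.96% (95% exact binomial interval 5.42% to 6.53%, counting error only), out of 20510 cells in the series. The study sorted PD-1+CD44+CD8+ T cells from female NZB/W F1 mice, which develop an immune complex kidney disease like lupus nephritis as they age. Sorted cells came from spleen at 12 weeks, from spleen at 28 weeks and from kidney at 28 weeks, and were profiled by droplet RNA sequencing from the 5′ end of transcripts. The labels name no transgene, deletion or treatment for any of these samples. Kidney cells were released by digestion with collagenase I and enriched on Percoll before sorting. An age entry of the 28W spleen samples gives 12 weeks while their titles give 28W, and the titles were followed. The 4 samples of each group differ in their titles only by a number that may mark a sequencing lane, and they share a single table, so each group was 1 library with no replicate, and the clustering was made from the same cells and genes that are described below. Nothing here was therefore tested: values are levels and ratios of levels, and their intervals cover the counting of molecules only.

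CD8+ T cells kill target cells with granzymes and perforin and secrete interferon-gamma after they recognise a peptide on MHC class I. Type I and type II interferons act through transcription factors that they activate to switch on a set of antiviral genes, and raised transcripts of this set in blood cells are a long-known feature of lupus. PD-1 is an inhibitory receptor induced by antigen stimulation, and TCF-1, the product of *Tcf7*, marks memory and stem-like CD8+ T cells that retain the capacity to divide.

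Levels are given as UMIs (unique molecular identifiers, each standing for a captured transcript) per 1000000 UMIs of the cluster (CPM). The cells of cluster 10 had few molecules and few detected genes. Their mean was 1822 UMIs per cell, 43.4% of the library mean of 4196. Among the other clusters the mean ran from 1200 in cluster 2 to 11404 in cluster 11 with a median of 4621. Cluster 10 held 774398 UMIs in all, so 3 counts equal 3.87 CPM, and it had the fewest genes with a UMI of the 12 clusters (11368, against 11869 to 13911). Mitochondrial genes took 1.496% of its UMIs, below cluster 2 (10.8%) and cluster 7 (4.26%) and above the median of the others (0.676%). *Gm42418*, a locus that overlaps ribosomal RNA sequence, took 6.95% against 11.3% in cluster 2 and a median of 1.39% in the others. The part of depth and of RNA quality in the results was not tested. The kidney library shared 56 barcodes with 12W spleen and 66 with 28W spleen, of which 7 and 4 belonged to cluster 10.

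**Figure D1:**
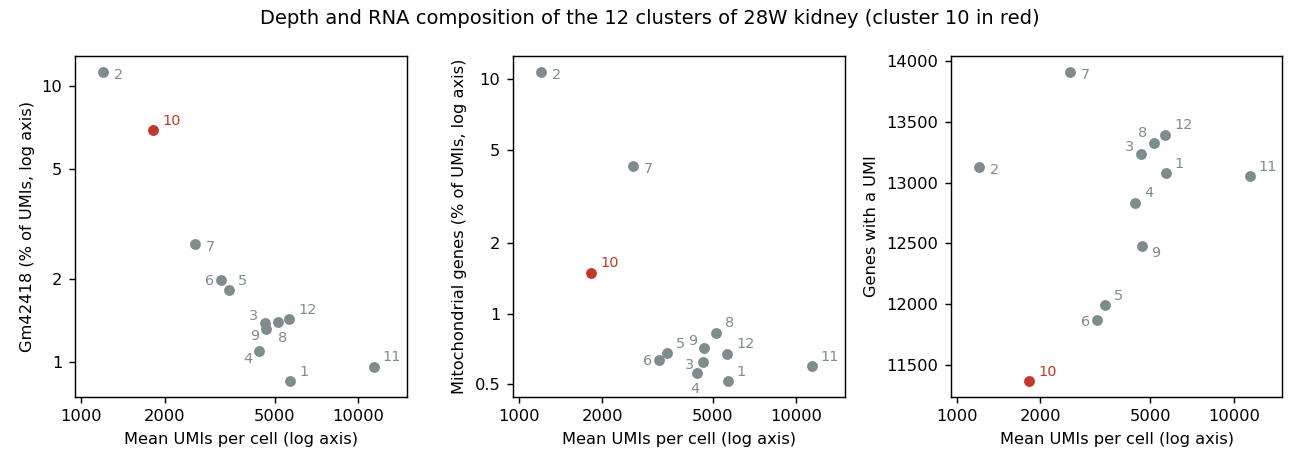
Each point is a cluster of the 28W kidney library, with mean UMIs per cell on the x axis (log axis) and, from left to right, the percent of UMIs from *Gm42418*, the percent from mitochondrial genes (log axes) and the number of genes with a UMI. Cluster 10, in red, sits next to cluster 2 at low UMIs per cell and high *Gm42418*, at 1.496% mitochondrial UMIs, and has the fewest genes with a UMI (11368).

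The transcripts that the sort selects for were present in cluster 10. *Cd8a*, which encodes a chain of the CD8 co-receptor, was at 770 CPM (95% Poisson interval 709 to 834) against 737 CPM in the other 11 clusters together. *Pdcd1*, the PD-1 gene, was at 124 CPM (100 to 151) against 115, and *Cd44*, an adhesion receptor of antigen-experienced T cells, at 91.7 (71.6 to 116) against 73.8. Over the 9 sort markers the median log2 ratio of cluster 10 to the other clusters was 0.09, with 6 above 0. Over the 6 reference clusters defined below it turned to -0.18, with 3 of the 9 above 0. Markers of other cell types were at low levels, apart from one of the kidney tubule. The 10 B cell markers summed to 213 CPM in cluster 10 with 3 of them at 0, among them *Cd79a*, a part of the B cell receptor complex. Across the other clusters that sum ranged from 174 to 47203 CPM with a median of 236. The 10 myeloid markers summed to 159 CPM with 4 at 0 (others 99.4 to 16335), the 5 erythroid markers to 3.87 CPM with 3 at 0 (others 0.805 to 2147), and the 9 kidney tubule markers to 76.2 CPM with 4 at 0 (others 13.7 to 14154, median 28.8). Of the 59 UMIs of tubule markers 44 were of *Gpx3*, a secreted glutathione peroxidase made by the tubule, which was at 56.8 CPM against 456 in the other clusters together and 15.8 in the reference clusters (log2 ratio 1.37). The 5 markers of CD4 and class II-restricted T cells summed to 85.2 CPM (others 22.9 to 273, median 43.4), which ranked 3 of 12. In the reference clusters they summed to 50.3 CPM. *Ctla4* was at 45.2 CPM in cluster 10. Clusters 2, 7, 8, 11 and 12 carried markers of B, myeloid, tubule or erythroid cells at 100 CPM or more and 10 times or more the median of the 12 clusters. The 6 remaining clusters (1, 3, 4, 5, 6 and 9) are called the reference clusters here.

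Cluster 10 was compared first with the other 11 clusters pooled, and then with the 6 reference clusters. A log2 ratio was taken after adding 10 CPM to both sides, among genes with 50 CPM or more on either side. "Higher" and "lower" below mean a log2 ratio of 1 or more in that direction. Of 3274 genes, 144 (4.40%) were higher in cluster 10 and 187 (5.71%) lower, and the median ratio of all of them was -0.01. Against the reference clusters, 124 of 3151 genes (3.94%) were higher and 60 (1.90%) lower. A total of 95 genes were higher in both comparisons and 44 lower in both. Of the 187 lower genes, 178 (95.2%, against 61.2% of all genes tested) had their highest level in one of the 5 clusters set aside above. Cluster 11 was the highest for 68 of them (36.4%, against 19.3% of all genes tested). It was set aside for its erythroid markers alone (1809 CPM), while its sort markers summed to 5958 CPM against 6648 in cluster 10, and it had the highest summed level of cell cycle genes. Among the lowest were genes of other cell types: *Cd74*, the invariant chain of MHC class II (50.4 against 1905 CPM), *Jchain*, which joins secreted antibody units (34.9 against 1061), the class II genes *H2-Eb1*, *H2-Aa* and *H2-Ab1*, and the neutrophil genes *S100a8*, *S100a9* and *Ngp*. None of these differed by a log2 ratio of 1 from the reference clusters, where *Cd74* was at 35.6 CPM and *Jchain* at 13.6.

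The higher genes were often shared with cluster 2. Cluster 10 had the highest level of the 12 clusters for 78 of the 144 (54.2%), and for 121 (84.0%) cluster 2 was the highest of the others. The share of all genes for the latter measure was not counted. Cluster 2 was the highest of all 12 clusters for 59 of the 144, and for 614 of the 3274 genes tested (18.8%). Over all 3274 genes, cluster 10 was the highest of 12 for 412 (12.6%) and the lowest for 89 (2.72%). Of the 144 higher genes, 18 belonged to any of the 46 gene lists, and 8 of these 18 were interferon-stimulated genes. The share of all tested genes that belong to a list was not counted.

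**Figure D2:**
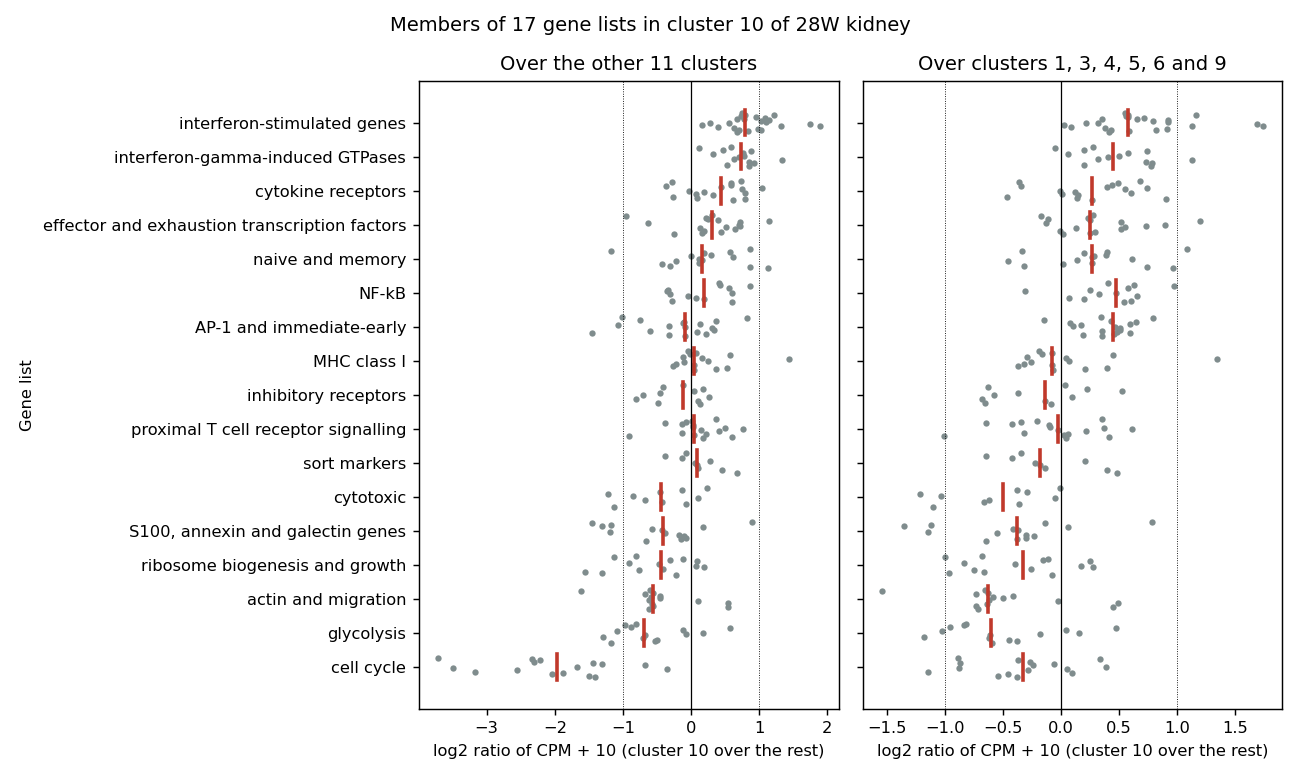
Points are the genes of 17 lists and red bars the median of each list, with the log2 ratio of CPM + 10 on the x axis, for cluster 10 over the other 11 clusters (left) and over the 6 reference clusters (right). Interferon-stimulated genes have the highest median of the lists drawn in both panels (0.79 and 0.58), while the cell cycle median lies at -1.96 on the left and -0.33 on the right, and the dotted lines mark a log2 ratio of 1 in either direction. The list of long non-coding and nuclear-retained RNAs, which is not drawn, has a higher median in both comparisons (1.02 and 1.19 over the genes found).

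Interferon-stimulated genes stood high in cluster 10. Of the 25 listed, 22 reached 50 CPM on either side, and all of these 22 had a ratio above 0. A total of 8 were higher (4.40% over all genes tested) and none lower, and over the reference clusters 3 were higher (3.94% over all genes), namely *Rnf213*, *Oasl2* and *Rsad2*. Cluster 10 ranked first of the 12 clusters for 6 of them and second for 13. The median log2 ratio of the 25 was 0.79 over the other clusters and 0.58 over the reference clusters, against -0.01 over all genes in both comparisons. Summed over the list, their level was 8826 CPM (8618 to 9038) in cluster 10 and 4845 CPM in the other clusters together. Cluster 6 was above it at 10055 CPM, and the remaining clusters ran down to 2536 CPM.

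The first 250 bases before the start of 3 of these genes are shown because the known binding site of factors that answer to interferon, the interferon-stimulated response element, repeats the letters GAAA. The sequences are from RefSeq on GRCm38.p6, 5′ to 3′ on the strand of the gene, and capitals mark each match, on either strand, to GAAA followed by any 2 bases and a further GAAA (TTTC, any 2 bases and TTTC where the match reads on the opposite strand). Matches that overlap were all kept. *Isg15* lies on the minus strand with its window at chr4:156200819-156201068, *Ifit3* on the plus strand with its window at chr19:34583279-34583528, and *Rsad2* on the minus strand with its window at chr12:26456453-26456702.
Isg15: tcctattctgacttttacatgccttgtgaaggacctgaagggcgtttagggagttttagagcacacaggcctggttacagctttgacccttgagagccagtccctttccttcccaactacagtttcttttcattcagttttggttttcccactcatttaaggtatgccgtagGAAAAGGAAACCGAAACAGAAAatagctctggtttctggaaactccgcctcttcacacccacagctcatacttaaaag
Ifit3: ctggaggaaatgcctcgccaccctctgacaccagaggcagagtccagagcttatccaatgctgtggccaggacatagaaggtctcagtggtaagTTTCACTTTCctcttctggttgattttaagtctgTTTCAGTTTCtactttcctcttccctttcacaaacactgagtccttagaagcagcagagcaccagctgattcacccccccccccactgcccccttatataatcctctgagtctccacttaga
Rsad2: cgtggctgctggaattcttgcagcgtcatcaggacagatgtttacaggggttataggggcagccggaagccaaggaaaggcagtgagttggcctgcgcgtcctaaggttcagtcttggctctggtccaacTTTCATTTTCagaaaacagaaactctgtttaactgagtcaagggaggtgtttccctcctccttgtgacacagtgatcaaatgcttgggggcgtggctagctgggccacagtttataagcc

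The *Isg15* window held 3 overlapping matches that begin 78, 72 and 66 bases before the start, the *Ifit3* window 2 matches and the *Rsad2* window 1. These letters were found in 978 of all 32851 RefSeq start windows of this length (2.98%). Of the genes tested, 2556 were matched to a window by symbol and 119 of them (4.66%) held the motif. It stood in the windows of 11 of the 109 higher genes that were matched (10.1%) and of 4 of the 116 lower genes matched (3.45%). Outside the interferon lists the share among higher genes was 7 of 102 (6.86%). These 3 genes were picked because their windows hold the motif. Of the 8 interferon-stimulated genes that were higher, 7 were matched to a window and 4 held it, *Trim30a* in 1 of its 2 windows, while *Rnf213*, *Oasl2* and *Isg20* had no match. A match describes the letters and does not show that a factor bound there.

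*Rnf213*, a very large ubiquitin ligase (GRCm38 chromosome 11, 119393100 to 119487418), was at 354 CPM (313 to 398) in cluster 10 and at 88.3 CPM in the other clusters, a ratio of 4.01 (3.52 to 4.54). The other 11 clusters ranged from 34.9 to 268 CPM with a median of 78.0, so cluster 10 lay above all of them. *Oasl2*, which encodes a protein related to the RNA-sensing oligoadenylate synthetases (chromosome 5, 114896936 to 114912234), was at 63.3 CPM (46.8 to 83.6) against 11.9, a ratio of 5.30 (3.85 to 7.17). Its level in the others ran from 1.22 to 60.7 CPM, the highest being cluster 12, with a median of 11.5. *Mx1*, a GTPase that restricts viruses, was at 85.2 CPM (65.9 to 108) against a range of 7.85 to 81.2, and *Trim30a*, a tripartite motif protein, at 168 CPM (140 to 199) against 34.3 to 158. In each of these 4 genes cluster 10 had the highest level, though the intervals of *Oasl2*, *Mx1* and *Trim30a* took in the level of the next cluster.

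For the other 4 higher genes of this set, cluster 6 exceeded cluster 10. *Isg15*, a ubiquitin-like modifier, was at 626 CPM (572 to 685) in cluster 10, at 908 in cluster 6 and at 144 to 355 in the remaining clusters. *Ifit3*, which binds foreign RNA, was at 283 CPM (247 to 323) in cluster 10, 478 in cluster 6 and 129 in the other clusters together. *Rsad2*, the antiviral enzyme viperin, was at 87.8 CPM (68.2 to 111) against 114 in cluster 6, and *Isg20*, an exonuclease of RNA, at 236 CPM (203 to 273) against 306. Cluster 10 was thus between cluster 6 and the rest for these transcripts. Transcription factors of the response were less far from the other clusters: *Stat2* was at 64.6 CPM against 27.8 (log2 ratio 0.98) and *Irf7*, a factor that amplifies interferon production, at 208 against 117 (0.78). The smallest ratio of the 22 was that of *Phf11b* (178 against 157 CPM, 0.17).

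The GTPases that interferon-gamma induces for defence against vacuolar pathogens showed a like order. All 10 of the 14 that reached 50 CPM had a ratio above 0, and the median of the 14 was 0.73. Their summed level was 1309 CPM (1230 to 1393) against 820. Cluster 6 was above this at 1636 CPM, and the median over cluster 6 was -0.32. Over the reference clusters the median was 0.45. *Iigp1* was the only member called higher (4.40% over all genes tested), at 68.4 CPM (51.3 to 89.5) against 20.99. It was the highest of the 12 clusters in cluster 10, next to cluster 6 at 58.0 CPM. *Irgm1* was at 67.2 CPM against 32.6 and *Igtp* at 186 against 116. Among the 15 genes of MHC class I presentation only *Nlrc5*, the transactivator of class I genes, was higher (4.40% over all genes tested). *Nlrc5* was at 182 CPM (153 to 215) against 60.5, and cluster 2 exceeded it at 232. The class I heavy chain *H2-K1* was at 3257 CPM against 3277 and its light chain *B2m* at 2966 against 3069, so these transcripts did not share the ratio of *Nlrc5*. *Gm11127*, a class I gene with near-identical copies that the counting may split, was at 157 CPM against 37.3 and is uncertain for that reason.

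*Tcf7* was at its highest in cluster 10. It was at 174 CPM (146 to 206) against 74.3 in the other clusters together, a ratio of 2.35 (1.96 to 2.79), and the other 11 clusters ranged from 15.4 to 149 with a median of 84.0. Cluster 9 came next at 149 CPM, inside the interval of cluster 10, and over the reference clusters the log2 ratio was 0.96. No other gene of the naive and memory list was called higher. Of the 13 at 50 CPM or more, *Tcf7* was the only higher gene (4.40% over all genes tested). *Ccr7*, the lymph node homing receptor, was the only lower gene (5.71% over all genes tested). *Ccr7* was at 29.7 CPM against 79.5, though at 40.1 in the reference clusters and at 460 in cluster 8. *Lef1*, a partner of TCF-1, was at 51.7 CPM against 45.4, and *Il7r*, the receptor for the survival cytokine IL-7, at 249 against 159. *Slamf6*, a receptor found on stem-like cells, was at 183 CPM (154 to 216) against 96.0, below cluster 2 at 239. The median of the list was 0.16, and 9 of the 13 had a ratio above 0. Over the reference clusters 10 of 12 did, with a median of 0.27.

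Among regulators of division the levels were split. *Ccnd2*, the cyclin D2 gene that acts early in G1 (chromosome 6, 127125162 to 127152193), was at 507 CPM (459 to 560) in cluster 10. The other 11 clusters ranged from 102 to 308 CPM, so the next cluster was below the interval. *Bcl2*, which protects from apoptosis, was at 86.5 CPM (67.1 to 110) against 44.4, level with cluster 2 at 85.8. In contrast all 16 cell cycle genes had a ratio below 0 and 14 were lower (5.71% over all genes tested), with a median of -1.96. The pooled level was set by cluster 11, where these genes summed to 20989 CPM, against 1411 CPM in cluster 10 and a median of 1830 in the other clusters. Over clusters 3, 6 and 9, the most like cluster 10 in their levels, the median was 0.12, 0.16 and 0.14. *Mki67*, a marker of dividing cells, was at 19.4 CPM against 83.8, and *Birc5*, a component of the mitotic machinery, had 0 UMIs, which allows up to 3.87 CPM, against 121 CPM. Against the reference clusters the median was -0.33 and *Stmn1*, a regulator of microtubules, was the only lower gene (20.7 against 58.0 CPM), while *Mki67* was at 12.5 CPM there.

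Of the 17 transcription factors of effector and exhausted cells, 12 reached 50 CPM and 11 of these had a ratio above 0, with a median of 0.30 over the list. *Ikzf2*, which encodes Helios, was the only higher gene (4.40% over all genes tested), at 56.8 CPM (41.3 to 76.3) against 20.2. *Runx3*, a factor that sets the CD8+ lineage, was at 248 CPM against 155 and highest of the 12 clusters. *Tbx21*, which encodes T-bet, was at 85.2 against 73.2, *Eomes*, a related T-box factor, at 110 against 92.9, and *Tox*, a factor of chronically stimulated cells, at 105 against 74.9, each under a log2 ratio of 0.5. Of the 11 inhibitory receptor genes only 4 reached 50 CPM on either side. None of these 4 was called in either direction (4.40% higher and 5.71% lower over all genes tested). *Lag3* was at 80.1 CPM against 64.8 and *Tigit* at 52.9 against 78.5. Of 10 cytokine receptor genes at 50 CPM or more only *Il18r1*, a chain of the IL-18 receptor, was higher (4.40% over all genes tested). *Il18r1* was at 87.8 CPM (68.2 to 111) against 37.5, followed by cluster 9 at 75.1, with a log2 ratio of 0.75 over the reference clusters. *Ifnar1*, a chain of the type I interferon receptor, was at 101 CPM against 56.5, next to cluster 2 at 102, and *Ifngr1*, a chain of the interferon-gamma receptor, at 172 against 212. *Itgal*, the LFA-1 integrin chain by which T cells adhere to their targets, was the only higher integrin of 5 at 50 CPM or more (4.40% over all genes tested). *Itgal* was at 382 CPM (340 to 428) against 176 and above all other clusters (84.9 to 297), with a log2 ratio of 0.92 over the reference clusters.

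**Figure D3:**
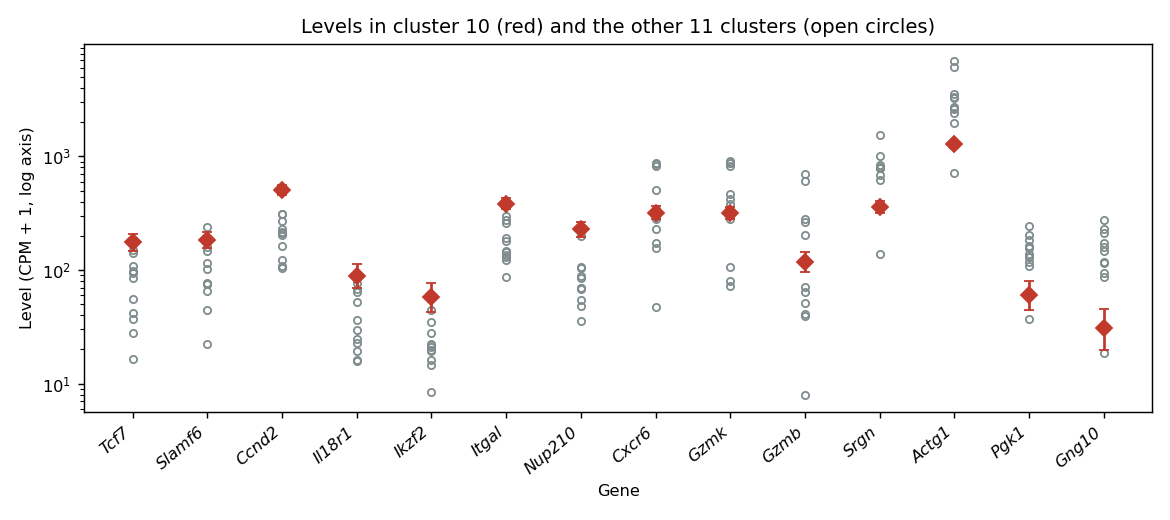
Levels of 14 genes in CPM + 1 (log axis), with cluster 10 as red diamonds with 95% Poisson intervals and each of the other 11 clusters of 28W kidney as an open circle. *Tcf7*, *Ccnd2*, *Il18r1*, *Ikzf2*, *Itgal* and *Nup210* are highest in cluster 10, while *Srgn*, *Actg1*, *Pgk1* and *Gng10* are above cluster 2 only.

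Of 10 cytotoxic genes, which encode the granule proteins of killing, 9 reached 50 CPM, 8 of these had a ratio below 0 and 2 were lower (5.71% over all genes tested). Summed, they stood at 3368 CPM, with 4722 CPM in the other clusters together and 3488 CPM in the median cluster of these. *Gzmb*, the granzyme B gene (chromosome 14, 56258838 to 56262260), was lower at 117 CPM (94.6 to 144) against 287 in the other clusters together. The levels of the others were wide apart, from 6.94 in cluster 5 to 696 in cluster 1 with a median of 69.3, so cluster 10 lay above the median cluster although it was below the pooled level. *Srgn*, the proteoglycan that packs granules, was lower at 360 CPM (319 to 405) against 799, and 10 of the other 11 clusters exceeded it. *Gzmk*, the granzyme K gene, was at 318 CPM against 581 and was lower only against the reference clusters (659). *Prf1*, the perforin gene, was at 78.8 against 83.4, and *Nkg7*, a granule membrane protein, at 1374 against 1855. The median of the list was -0.45 over the other clusters and -0.50 over the reference clusters. For the 9 genes at 50 CPM the median over the other clusters was -0.46, and -0.18 less the median of genes of like length. Of secreted products, *Ifng* was at 112 CPM (90.0 to 139) against 84.3 and highest of the 12 clusters together with cluster 3, also at 112, and the chemokine *Ccl5* at 7763 against 7488. Over the reference clusters the direction of *Ccl5* turned (9495 CPM there, log2 ratio -0.29), and *Ifng* was at 90.1 CPM there. *Cxcr6*, a chemokine receptor of tissue-resident T cells, was at 319 CPM against 482, far below clusters 3 and 6 at 861 and 870. *Cd69*, which holds cells in tissue, was at 161 CPM against 121. Of the 13 residency genes only 6 reached 50 CPM on either side. None of these 6 was called (4.40% higher and 5.71% lower over all genes tested).

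Genes of the immediate response to stimulation sat near the middle of the clusters. Of the 18 AP-1 and immediate-early genes 12 reached 50 CPM, and of the 13 NF-kB genes 10 did. None of these was called (4.40% higher and 5.71% lower over all genes tested). The medians of the 2 full lists were -0.09 and 0.19 over the other clusters. These include cluster 8, with the highest summed level of both lists (14474 and 4327 CPM, against 3884 and 1342 in cluster 10). Over the reference clusters the medians were 0.44 and 0.47, and 11 of 12 AP-1 genes and 9 of 10 NF-kB genes had a ratio above 0. *Jun* was at 453 CPM against 315 there, *Fos* at 214 against 139, and *Nfkb1*, a subunit of NF-kB, at 89.1 (69.3 to 113) against 40.4. *Nr4a1*, which antigen receptor signals induce, was at 9.04 CPM (3.63 to 18.6) against 91.4 in the other clusters together and 15.7 in the reference clusters. Cluster 8 held it at 733 CPM.

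Cluster 10 had low levels of most glycolysis genes. Of the 14 glycolysis genes found, 10 reached 50 CPM, 9 of these had a ratio below 0, and cluster 10 ranked 11 or 12 of the 12 clusters for 7 of them. *Pgk1* was at 59.4 CPM (43.5 to 79.2) against 160, *Tpi1* at 28.4 (17.8 to 43.0) against 76.5 and *Ldha*, which turns pyruvate into lactate, at 245 (212 to 283) against 535. These were the 3 lower genes of the list (5.71% over all genes tested), and its median was -0.69 over the other clusters and -0.60 over the reference clusters. *Hk1*, the hexokinase that starts the pathway, went the other way at 93.0 CPM against 59.4, the highest of the 12 clusters. Of the 14 actin and migration genes 11 had a ratio below 0 and 1 was lower (5.71% over all genes tested). Their summed level of 44877 CPM ranked 8 of 12. The lower gene was *Actg1*, a cytoplasmic actin, at 1269 CPM (1191 to 1351) against 3915, and *Actb* was at 8110 against 12267. *Tmsb10*, an actin-binding thymosin, was highest of the 12 clusters at 16278 CPM against 11177, while its relative *Tmsb4x* was at 9303 against 14205. The annexins *Anxa2* and *Anxa5* and the galectin *Lgals3* were the lower genes among 13 of the S100, annexin and galectin list at 50 CPM or more. *Ran*, *Eif5a* and *Odc1* were those among 13 genes of ribosome biogenesis and growth (5.71% over all genes tested for both lists). The median of this growth list was -0.44 over the other clusters and -0.47 over cluster 9, though 0.06 over cluster 3 and 0.10 over cluster 6. *Gng10*, a G protein subunit outside all lists, had the lowest ratio over the reference clusters, at 29.7 CPM (18.8 to 44.6) against 164. It was followed by *Actg1* and by *Atp5c1*, a subunit of the mitochondrial ATP synthase (163 against 440 CPM).

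The constant regions of the T cell receptor were at their highest in cluster 10. *Trac* was at 448 CPM (402 to 498) against 52.0 to 376 in the other clusters, *Trbc1* at 161 CPM against 86.9 in the other clusters together, and *Trbc2* at 714 against 410. The variable segments were not: all *Trbv* segments summed to 934 CPM against 1756, and all *Trav* segments to 544 against 859. By share of the 723 *Trbv* UMIs, the most used were Trbv13-2 (22.96%, against 23.1% in the other clusters), Trbv13-1 (19.9%, interval 17.1% to 23.02%, against 25.3%) and Trbv14 (11.3% against 8.63%). Among segments with at least 2% of them, Trbv30 had the highest ratio of shares at 2.21% against 0.25%, from 16 UMIs. Trbv1 was at 8.85% against 6.35%. Of the 421 *Trav* UMIs, Trav10d took 7.60%, Trav5-4 5.70% and Trav3-3 5.46%. The effective number of segments (the inverse of the summed squared shares) was 7.54 for *Trbv*, inside the 5.53 to 8.18 of the other clusters, and 30.1 for *Trav*, inside 20.3 to 35.1. Related *Trav* segments share sequence and are uncertain, and UMIs of the same cell or clone are not independent.

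The ratio of cluster 10 to the others went with the length of the transcript. Genes were put in 5 equal groups by their longest annotated transcript. The median log2 ratio was -0.28 in the shortest group (204 to 1575 nt), -0.27 and -0.12 in the next groups, 0.34 in the fourth (3623 to 5155 nt) and 0.62 in the longest (5155 to 23495 nt). In the longest group 12.7% of genes were higher and 0.774% lower, and in the shortest 1.24% were higher and 9.13% lower. Against the reference clusters the longest group exceeded the shortest by 0.84 on the log2 scale in cluster 10. Only cluster 2 exceeded this, at 1.87. Cluster 3 followed at 0.46 and the others ran from -0.48 to 0.21. Transcript length thus moved with the ratios given above, and its part in them was not tested beyond the values that follow. Ratios were next taken less the median of genes of like length, for list members at 50 CPM or more only. The interferon-stimulated genes then had a median of 0.96 over the other clusters (0.81 unadjusted for the same genes), and all 22 lay above their length group. On that scale glycolysis was at -0.73 (-0.85 unadjusted for the same genes), actin genes at -0.32 (-0.57) and cytotoxic genes at -0.18 (-0.46). The S100, annexin and galectin genes were at -0.11 (-0.39). The integrin median went from 0.44 to 0.09. The naive and memory median went from 0.16 to 0.23, with 7 of 13 genes above their length group. Over the reference clusters it went from 0.27 to 0.14. Of single genes called higher, *Tcf7* was at 1.40, *Rnf213* at 1.27, *Oasl2* at 1.86 and *Zfpm1* at 1.60. The interferon-stimulated genes *Isg15*, *Ifit3*, *Isg20* and *Mx1* were at 1.43, 1.35, 1.31 and 1.21, but *Rsad2* at 0.98 and *Trim30a* at 0.69. Others were also under 1 on that scale: *Itgal* at 0.46, *Ikzf2* at 0.52, *Ccnd2* at 0.69, *Il18r1* at 0.70, *Nup210* at 0.79, *Hipk1* at 0.82 and *Nlrc5* at 0.82.

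**Figure D4:**
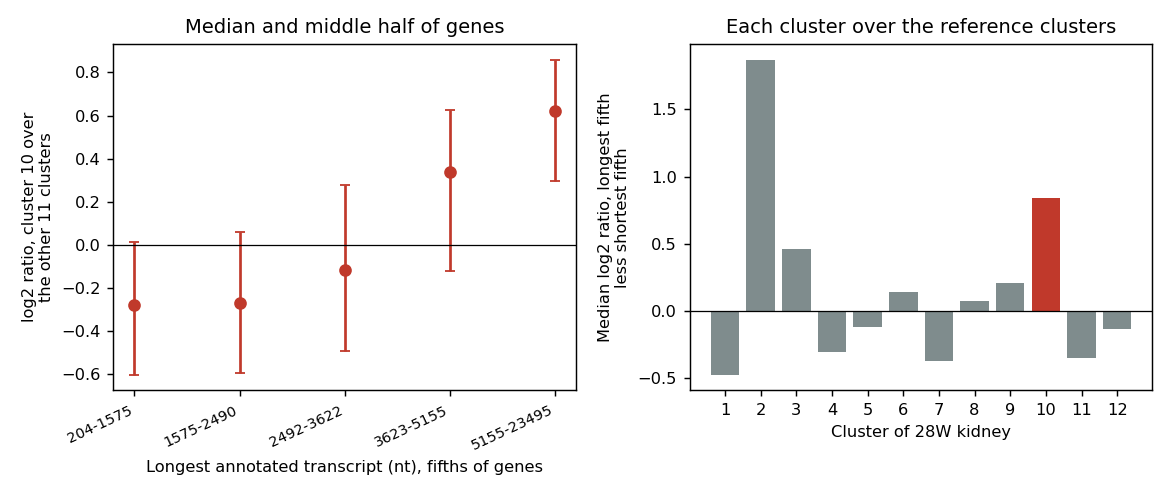
Left, the median (point) and interquartile range (bar) of the log2 ratio of cluster 10 over the other 11 clusters in 5 groups of genes ordered by longest annotated transcript in nt; right, the median log2 ratio of the longest group less that of the shortest for each cluster over clusters 1, 3, 4, 5, 6, 9 and 10, itself left out. Ratios of cluster 10 go from -0.28 in the shortest group to 0.62 in the longest, and its long-minus-short value of 0.84 is second to that of cluster 2 (1.87).

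Among the genes with the highest ratios, *Kmt2b* and *Kmt2d*, which methylate histone H3 at lysine 4, were at 77.5 CPM against 18.2 and at 106 against 30.3, with cluster 2 at 73.4 and 158. *Hipk1*, a nuclear kinase, was at 186 CPM (157 to 219) against 62.3, *Nup210*, a nuclear pore protein, at 226 (194 to 262) against 78.6, and *Zfpm1*, a GATA cofactor, at 56.8 (41.3 to 76.3) against 13.9. Each of these 3 was highest of the 12 clusters in cluster 10. Transcripts that stay in the nucleus were also high: *Malat1* was at 7295 CPM against 3566, *Xist*, which coats the inactive X chromosome, at 922 against 454, and in both cluster 2 was above cluster 10, at 19221 and 1500 CPM. Of the 5 genes of the list of long non-coding and nuclear-retained RNAs at 50 CPM or more, 4 were higher (4.40% over all genes tested) and cluster 10 ranked second for all 5. The median of these 5 was 1.03, and 0.41 less the median of genes of like length. The 4 higher genes included *Gm42418* (log2 ratio 2.06), the locus that overlaps ribosomal RNA sequence, and *Gm26917* (1.07). *Gm42418* held 53842 of the 60611 UMIs of the list in cluster 10. *Lars2*, annotated as a mitochondrial leucyl-tRNA synthetase, was at 11174 CPM against 3661 and at 34310 in cluster 2. It was grouped here with *Gm42418* and *AY036118* as a locus whose counts may hold ribosomal RNA. Its level may therefore not be that of the synthetase transcript, which was not tested. These 3 loci took 8.35% of UMIs in cluster 10, 15.2% in cluster 2 and a median of 1.79% in the others. Some transcripts set cluster 10 apart from cluster 2 as well. The largest lead over the next cluster was that of *Gm11127*, followed by *Nop53*, a factor of ribosome assembly, at 201 CPM (171 to 236) against 58.0 to 112 in the others. *Ccnd2* was the third. Others with such a lead were *Rcc2*, a regulator of the mitotic spindle (62.0 CPM, next 37.1), *Rab27a*, which docks lytic granules at the membrane (63.3, next 40.3), and *Phc2*, a Polycomb protein (51.7, next 27.9).

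Clusters 3, 6 and 9 were the most like cluster 10. Over 2655 genes, the Pearson correlation of log2(CPM + 10) was 0.955 with cluster 3, 0.9495 with cluster 6 and 0.947 with cluster 9, and 0.827 with cluster 2. These values are across genes, which are not replicates, and all come from a single library with shared preparation. Against cluster 3, 48 of 3232 genes (1.49%) were higher and 61 (1.89%) lower. The counts against cluster 6 were 76 (2.43%) and 55 (1.76%) of 3133, against cluster 9 they were 117 (3.76%) and 42 (1.35%) of 3110, and against cluster 2 they were 508 (15.7%) and 134 (4.13%) of 3244. Gene groups split these neighbours. The median of the interferon-stimulated genes was 0.37 over cluster 3, -0.35 over cluster 6 and 1.06 over cluster 9. The naive and memory median was 0.71 over cluster 3, 0.97 over cluster 6 and -0.27 over cluster 9, and the cytotoxic median -0.82, -0.84 and 0.10 in the same order. By these medians cluster 10 had interferon-stimulated transcripts between those of clusters 3 and 6, memory transcripts above both, and cytotoxic transcripts near those of cluster 9. The summed memory levels were closer, at 2802 CPM against 2603 in cluster 3 and 2472 in cluster 6. These values are given without adjustment for transcript length. A total of 29 genes were higher and 16 lower than clusters 3, 6 and 9 at once, and the share of all genes was not counted. Of these, 21 and 14 were also called over the other 11 clusters. The 29 higher ones included the tubule marker *Gpx3*, *Gm42418*, *Lars2*, 7 mitochondrial genes, *Kmt2b*, *Kmt2d*, *Nup210* and *Nop53*. Of those named, *Gpx3* and the 7 mitochondrial genes were not called higher over the other 11 clusters, where *Gpx3* was among the lower genes. The 16 lower ones included *Gng10*, *Srgn*, *Anxa5*, *Atp5c1* and *Rhoa*, a GTPase that organises actin. Receptor segments were also among the lower ones: Trbv31, Trbv13-1, Trbv4 and Trbv13-2, of which Trbv4 and Trbv13-2 were not called over the other 11 clusters. Of both sets, *Oasl2* alone was also called in the same direction over cluster 2.

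Levels in the spleen libraries, which were clustered and normalized apart from kidney, were set beside those of cluster 10. By correlation over 2652 genes the nearest were cluster 4 (0.935) and cluster 5 (0.933) of 28W spleen, and cluster 2 of 12W spleen was at 0.911. The interferon-stimulated genes summed to at most 7314 CPM in 28W spleen, in its cluster 4, and to at most 3031 CPM in 12W spleen. *Isg15* was at 626 CPM in cluster 10, at 43.3 to 513 in the clusters of 28W spleen and at 21.1 to 127 in those of 12W spleen. *Ccnd2* reached at most 247 and 328 CPM there, below the 507 CPM of cluster 10, and *Rnf213* at most 200 and 137, below 354. *Cxcr6* was at 319 CPM in cluster 10 and at most 128 and 151 in the spleen clusters. *Tcf7* at 174 CPM was by contrast below the median cluster of both spleens (201 in 28W and 198 in 12W). *Gzmb* at 117 CPM was above every spleen cluster (at most 96.3 and 31.5), although it was among the lower genes within kidney. Age, organ, library and digestion cannot be told apart across these tables.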

How the data were processed

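PD-1+CD44+CD8+ T cells were measured in 12 samples of 3 groups, with groups taken from sample titles. Whether the 4 of a group are separate samples or lanes of 1 library is not given in the sources used here. The submitters' processing notes name Cell Ranger 2.1.1, R 3.6.1 and GRCm38, and cell filters and doublet handling are not given in the sources used here. Per library, the authors deposited a cluster number for each barcode and a table of mean counts per gene and cluster, scaled to a common depth. Its columns of log2 fold change and adjusted p were not used. Every deposited mean was a whole multiple of the value of 1 UMI (100% within 0.001 of a whole number), so UMIs were recovered and expressed as CPM of each cluster. The 28W kidney library held 29937384 UMIs. GENCODE M21 (GRCm38) held 17762 of the 17790 identifiers and supplied coordinates and lengths, and 6 duplicated symbols were left out.

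Ratios used a pseudocount of 10 CPM, a minimum of 50 CPM on either side and a threshold of 1 on the log2 scale, which understates ratios of low genes. Intervals are 95% exact Poisson, conditional binomial or Clopper-Pearson limits, and a count of 0 was set to a limit of 3 counts. Genes were named from the 15 highest and 15 lowest ratios, the 10 largest leads over the next cluster, the 3 most used and 3 most raised Trbv and Trav segments, and 46 lists of 463 genes. Genes over clusters 3, 6 and 9 at once, and the lowest over the reference clusters, were added after values were seen. The cluster, its members and the lists were chosen with earlier results of these data known. Some listed genes are not reported here by name. Alternatives were other pseudocounts, minimums, scalings and comparison sets. Scripts ran in Python 3.11.15 with numpy 2.4.6, pandas 2.3.3, scipy 1.17.1 and matplotlib 3.10.9 and were tested on simulated data.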

Additional observations from a re-analysis of the deposited data

How the results depend on the processing

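All values rest on 1 pooled library, 774398 UMIs of cluster 10 and a clustering made from the same genes, so no spread between mice is known. No paired analysis was possible because the samples that share replicate numbers are pooled in each table. The count of higher genes (144) was 262 with a pseudocount of 1 CPM, 40 with 30 CPM, 80 with a minimum of 100 CPM, 81 with the other clusters weighted equally and 221 when *Gm42418*, *AY036118* and *Lars2* were kept out of the totals. That last setting, chosen after seeing the data, moved the median of all genes to 0.11. The count of lower genes (187) was 303 with a minimum of 20 CPM, 113 with 100 CPM, 372 with none and 60 over the reference clusters. The median of the interferon-stimulated genes (0.79) was 0.89 and 0.71 with pseudocounts of 1 and 30 CPM and 0.85 with equal weights. It was 0.58 over the reference clusters and 0.89 without the 3 named transcripts in the totals. Less the median of genes of like length (chosen after seeing the data), the 22 genes at 50 CPM or more were at 0.96, against 0.81 unadjusted. Over the reference clusters the cell cycle median was -0.33, the sort marker median turned to -0.18, *Ccl5* to -0.29, and these turned positive: kidney tubule markers 0.27, erythroid markers 0.042, *Cd74* 0.40, *Gpx3* 1.37, *H2-Aa* 0.88, *H2-Eb1* 0.11, *Jchain* 0.92, *Mki67* 0.39 and *S100a9* 0.17. The reference clusters were picked for low levels of such markers. Of the cells outside the 5 excluded clusters, cluster 10 was 9.11%, and its correlation with cluster 3 was 0.941 without ribosomal protein and mitochondrial genes. The sign of the list median was kept by 46 of 46 lists under other pseudocounts, other scalings and without cluster 2, by 45 with equal weights, by 38 over the reference clusters and by 34 of 39 less the median of like length. *Gzmb*, *Ldha*, *Ifit3*, *Mx1*, *Malat1*, *Xist*, *Lars2* and *Anxa2* were within the threshold with equal weights, and *Tcf7*, *Rsad2*, *Trim30a*, *Iigp1*, *Ikzf2* and *Il18r1* with a pseudocount of 30 CPM.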
